A study of Mus musculus with 22 samples.

Results

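Gut CD8 T cells were compared with spleen CD8 T cells of the same batch and treatment label, in 10 of the 22 libraries of the series, which form 5 pairs. Sample characteristics and source name supplied the tissue, because for the CD8 libraries labelled IgG the description field names the other tissue. All were donor cells of wild-type C57BL/6 mice, whose spleen and bone marrow cells had been injected into lethally irradiated wild-type BALB/c recipients, a mouse model of graft-versus-host disease. The recipients received an anti-IL-2 antibody (3 pairs, batches 181201, 181212 and 190306) or control IgG (2 pairs, batches 181212 and 190306), given on alternate days, and donor CD8 T cells were sorted from colon (the gut libraries) and spleen on day 7. The remaining spleen IgG library of batch 181201 has no gut partner and was left out. Whether animals were shared within a batch, or pooled, is not stated in the labels, so the p-values measure the spread between these libraries. Levels are CPM, read counts per gene scaled to a common library size, and the values of 5 libraries are given in the order anti-IL-2 of batches 181201, 181212 and 190306, then IgG of batches 181212 and 190306.

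After transfer, donor T cells are primed by host antigen in lymphoid organs, divide and enter the bloodstream through receptors for sphingosine-1-phosphate. Entry into the intestine is guided by the chemokine receptor CCR9 and the integrin alpha4beta7. Cells that stay there can acquire a tissue-resident state, in which TGF-beta induces the integrin CD103 (Itgae), CD69 holds S1PR1 off the cell surface, and the transcription factor KLF2 and its target S1pr1 are reduced. Graft-versus-host disease of the gut is an important cause of illness after transplantation.

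Total counts ran from 16569598 to 24518362 per library. Cd8a, a chain of the CD8 coreceptor, was at 1990, 2127, 1812, 1501 and 1976 CPM in gut libraries and at 1312, 1262, 902, 1079 and 1161 CPM in spleen libraries. Cd4 stayed at or below 7.11 CPM in all 10. Some genes split the libraries within each tissue in a way that did not follow the treatment label: Socs2, a STAT5-induced inhibitor, was at 3.57, 2.88, 21.7, 22.9 and 0.76 CPM in gut and at 0.616, 0.471, 4.1, 7.81 and 0.526 CPM in spleen. In both tissues the libraries labelled anti-IL-2 in batch 190306 and IgG in batch 181212 were thus the high ones. The labels were used as deposited. The pairing removes the part of this split that gut and spleen of a pair share. It does not remove a tissue difference that varies with the split. The count of changed genes is given with and without batch 190306.

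Gut libraries also held RNA of other cells, in uneven amounts. The summed level of 22 colon epithelium markers was 243, 116, 121, 79 and 70.3 CPM in gut, against 24.7, 25.8, 21.4, 25.9 and 21.5 CPM in spleen, but Cdh1 and Lgals4 carried much of it. Without these genes, left out after their values were seen, it was 162, 53.9, 8.98, 9.56 and 10.5 CPM in gut, against 11.2, 11.3, 8.84, 9.93 and 7.77 CPM in spleen. By this sum, only the anti-IL-2 gut libraries of batches 181201 and 181212 stood clearly above spleen. Epcam made up most of the spleen sums, at 9.55, 10.1, 7.41, 8.81 and 6.8 CPM. In gut it was at 16.4, 12.5, 4.69, 3.47 and 4.56 CPM. Krt8 was at 10.9, 2.94, 0.309, 0.534 and 0.434 CPM in gut and at 0 CPM in spleen. Krt19 was at 14.4, 5.14, 0.752, 0.588 and 0.923 CPM in gut and at most 0.112 CPM in spleen. Low levels of these keratins were thus found in every gut library. Muc2, the goblet cell mucin, was at 26.1, 6.16, 0.265, 0.427 and 1.41 CPM in gut and at most 0.23 CPM in spleen. Markers of fat cells (9 genes) summed to 25.9, 38.8, 0, 1.82 and 0.434 CPM in gut, against at most 0.36 CPM in spleen. Those of pancreas acinar cells other than Cela1 (11 genes) summed to 83.3, 34.02, 0.84, 0.481 and 3.64 CPM in gut, against 2.78, 0.766, 0.23, 0.223 and 0.405 CPM in spleen. The anti-IL-2 gut libraries of batches 181201 and 181212 thus held most epithelial, fat and pancreas RNA. Plasma cell markers other than Jchain (4 genes) summed to 3.68, 19.8, 1.81, 1.23 and 4.02 CPM in gut, against 1.49, 1.76, 2.17, 0.837 and 1.49 CPM in spleen, highest in the anti-IL-2 gut library of batch 181212. Spleen libraries held RNA of other cells too. Neutrophil markers (11 genes) summed to 31.6, 2.18, 73.8, 6.19 and 1.25 CPM in spleen, against 10.9, 6.95, 5.04, 4.81 and 0.163 CPM in gut. The part of all these cells in the results was not tested beyond leaving the pairs out. In these bulk libraries more cells of a type and more RNA per cell cannot be told apart.

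**Figure D1:**
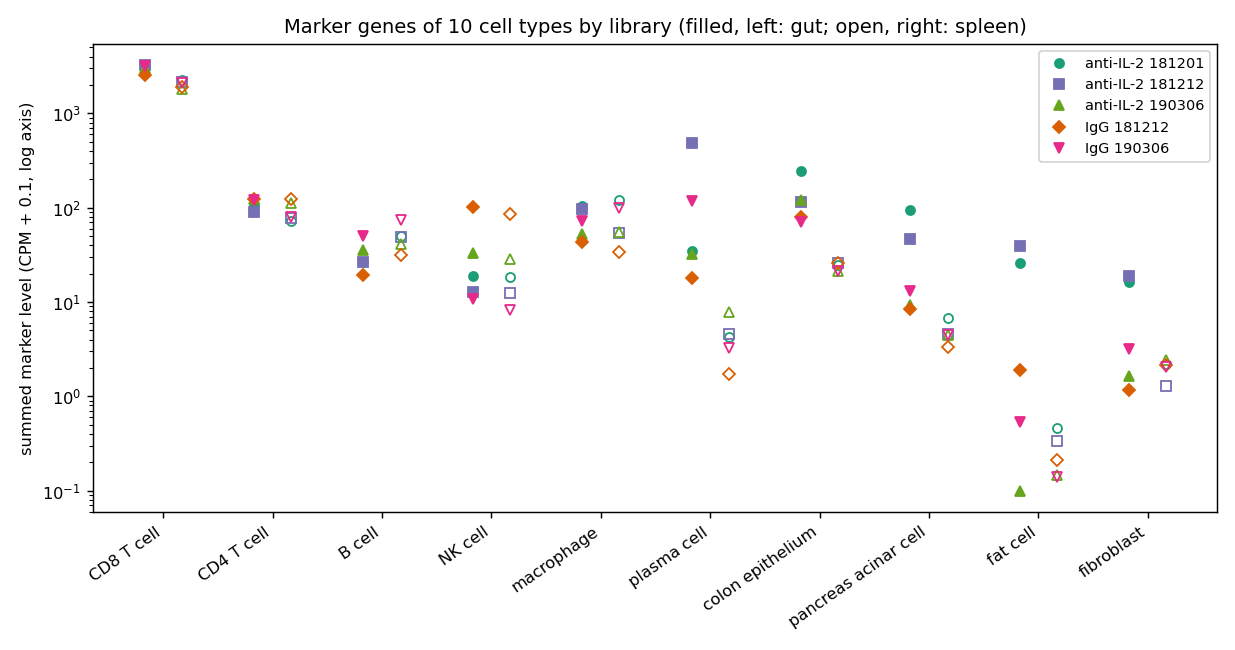
Summed marker level (CPM + 0.1, log axis) of 10 cell types in each of the 10 libraries, gut filled and on the left, spleen open and on the right. CD8 markers lie between 2544 and 3240 CPM in gut and between 1819 and 2281 CPM in spleen, and fat, pancreas and fibroblast markers are highest in the anti-IL-2 gut libraries of batches 181201 and 181212. The epithelial, pancreas, plasma cell and NK cell sums rest largely on Cdh1 and Lgals4, Cela1, Jchain and Klrb1c in some libraries.

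A large share of genes differed between the tissues. Of 11589 genes tested with edgeR's quasi-likelihood test with the pair as a block, 5030 (43.4%) passed an adjusted p of 0.05 (Benjamini-Hochberg). Of these, 2505 (21.6% of genes tested) were higher and 2525 (21.8%) lower in gut, and the median log2 fold change over all genes was -0.0123. Most changes were small: 375 genes rose and 209 fell by more than 2-fold. Groups did not overlap for 1704 genes (14.7%). Without batch 190306, 2852 genes passed. Within batch 181212 alone 979 passed, and within batch 190306 alone 4056. Without the anti-IL-2 pairs of batches 181201 and 181212, an alternative chosen after the marker levels were seen, 4047 passed.

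**Figure D2:**
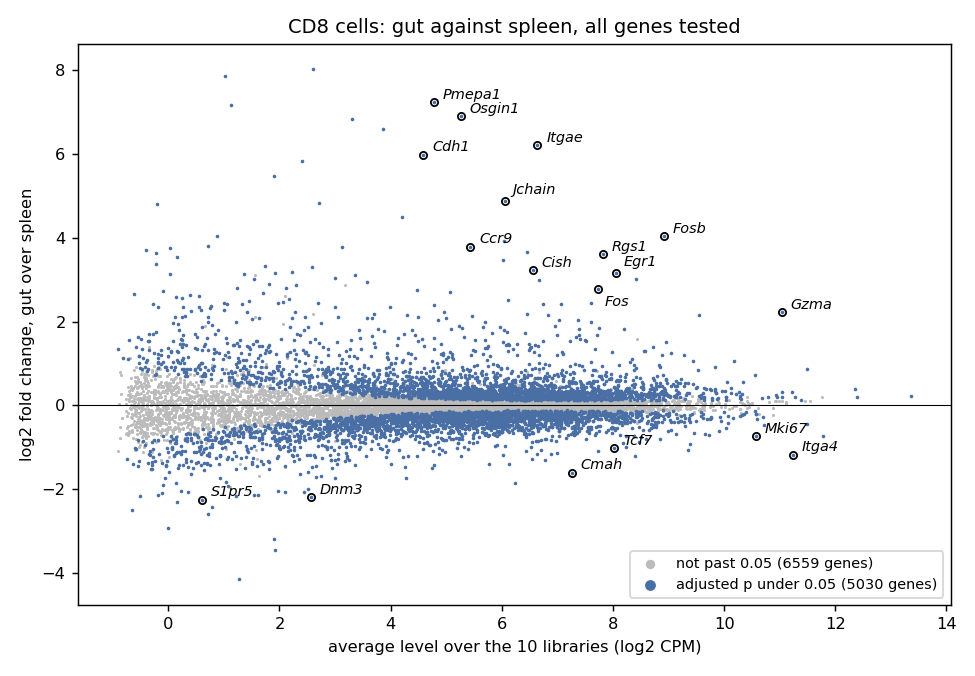
Log2 fold change of gut over spleen CD8 cells (y axis) against the average level over the 10 libraries in log2 CPM (x axis) for all 11589 genes tested, with the 5030 genes past an adjusted p of 0.05 in blue. Among the labelled genes the increases reach furthest for Pmepa1, Osgin1, Itgae and Cdh1, and the decreases, down to S1pr5, are smaller in size.

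Genes of tissue residence stood higher in gut. Of 21 members tested from a list of 23, 19 rose and 0 fell (median log2 fold change 1.64), where 21.6% of all genes rose. Itgae, the CD103 chain that binds E-cadherin on epithelium, lies on chromosome 11 from 73090583 to 73147446 (mm10, plus strand). It was at 371, 330.1, 85.1, 118 and 81.5 CPM in gut and at 4.01, 1.82, 1.98, 2.51 and 1.54 CPM in spleen. Every gut library was far above every spleen library, and the anti-IL-2 libraries of batches 181201 and 181212 were the highest in gut. The log2 fold change was 6.21 ± 0.29 (SE; adjusted p = 6.52e-05, edgeR), a 74.0-fold difference. Cd69, the early activation and retention receptor, was at 301, 389, 110, 513 and 353 CPM in gut against 70.2, 93.1, 49.96, 41.0 and 36.2 CPM in spleen. The lowest gut library, anti-IL-2 of batch 190306, was still above the highest spleen library (log2 fold change 2.44 ± 0.45, adjusted p = 0.0122, edgeR).

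Itga1, the CD49a chain that binds collagen, was at 234, 214, 264, 329.5 and 193 CPM in gut and at 59.4, 49.0, 115, 178 and 42.0 CPM in spleen (log2 fold change 1.67 ± 0.24, adjusted p = 0.00368, edgeR). Rgs1, which dampens chemokine receptor signalling, rose by 3.60 ± 0.42 on the log2 scale. P2rx7, the receptor for extracellular ATP, rose by 3.47 ± 0.40, and Cxcr6, a chemokine receptor of resident cells, by 0.48 ± 0.10. Ahr, the aryl hydrocarbon receptor that supports intestinal lymphocytes, rose by 2.12 ± 0.25. Runx3, a transcription factor of CD8 and resident cells, rose by 0.41 ± 0.06, and Hic1, a repressor found in intestinal T cells, by 2.51 ± 0.12. Prdm1, encoding the regulator Blimp-1, did not pass (-0.12 ± 0.10). Without the anti-IL-2 pairs of batches 181201 and 181212, 7 of the list rose. In that setting 2074 of the 11600 genes tested rose. Cd69, Itga1, Cxcr6, Ahr, Rgs1 and P2rx7 then missed the threshold with adjusted p = 0.131, 0.0788, 0.0996, 0.0594, 0.0836 and 0.0517 (edgeR), in the same direction.

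**Figure D3:**
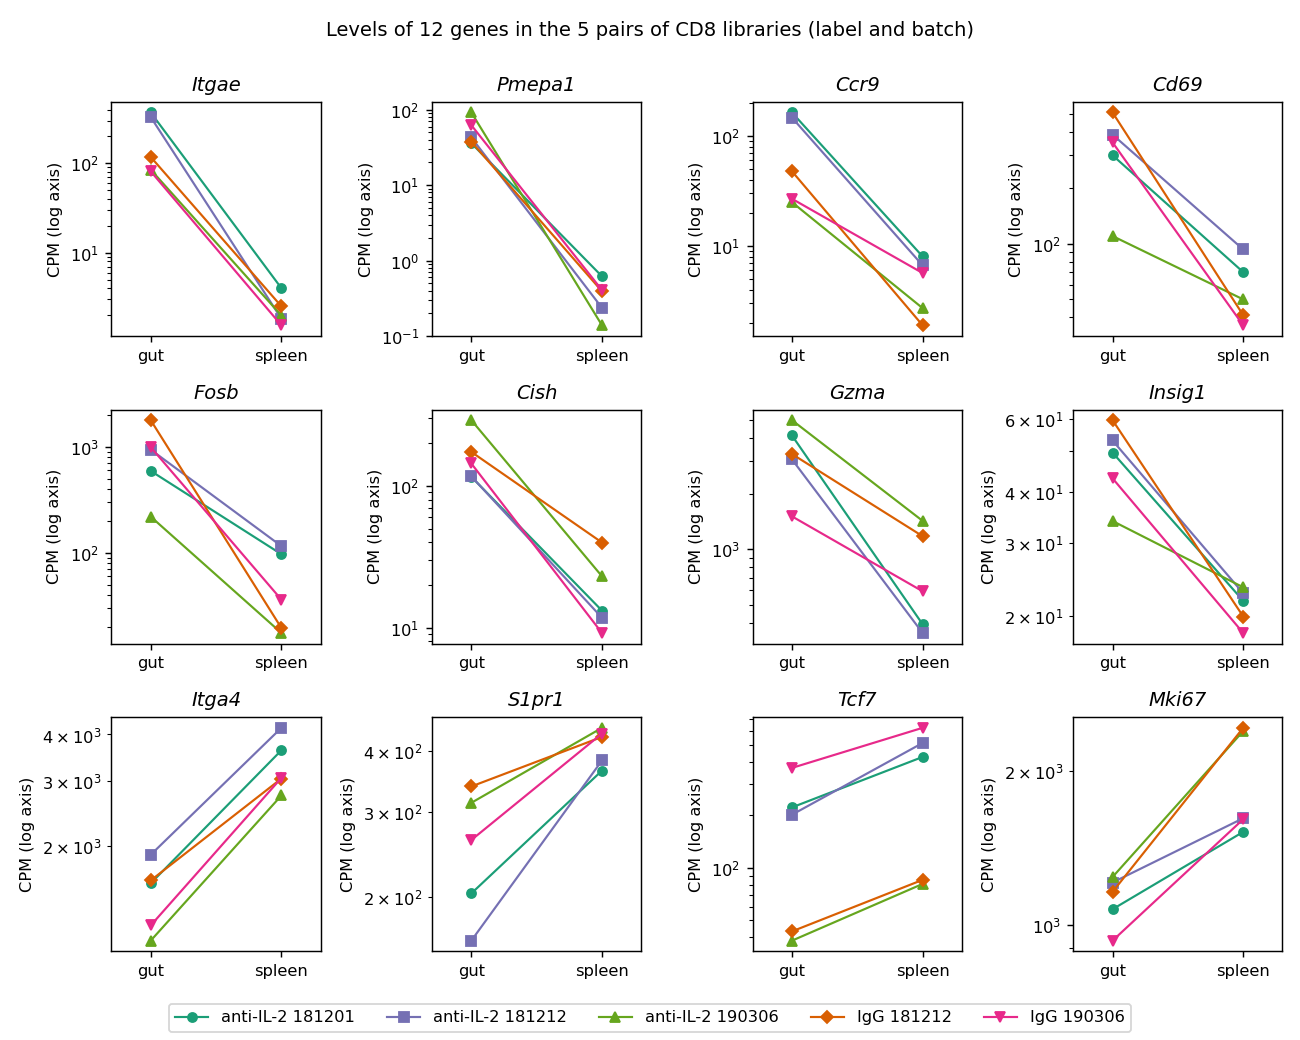
Levels in CPM (log axes) of 12 genes in gut (left) and spleen (right) libraries, with a line for each of the 5 pairs. Itgae, Pmepa1, Ccr9, Cd69, Fosb, Cish, Gzma and Insig1 are higher and Itga4, S1pr1, Tcf7 and Mki67 lower in gut in every pair, while Tcf7 also splits the libraries within each tissue.

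Genes for leaving tissue and for homing to lymph nodes were mostly lower in gut. Of 15 tested members, 11 fell and 2 rose (median -0.73), where 21.8% of all genes fell. S1pr1, the receptor that draws T cells out of tissue, was at 204, 163, 313, 338 and 262 CPM in gut and at 365, 383, 447, 428 and 435 CPM in spleen. The groups did not overlap (log2 fold change -0.73 ± 0.12, adjusted p = 0.00243, edgeR). S1pr5 and S1pr4, related receptors, fell by 2.25 and 0.74 on the log2 scale. Klf2 and Klf3, transcription factors of quiescent and circulating T cells, fell by 0.73 and 1.07, Ccr7, a chemokine receptor for entry into lymph nodes, by 1.34, and Cx3cr1, a receptor of circulating effector cells, by 1.16. With all 22 libraries in a model without pairs, Ccr7 had adjusted p = 0.222 (edgeR).

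Receptors for entry into the gut moved in different directions. Ccr9, the receptor for the intestinal chemokine CCL25, was at 163, 147, 24.98, 47.7 and 26.8 CPM in gut and at 8.01, 6.65, 2.72, 1.90 and 5.67 CPM in spleen (log2 fold change 3.79 ± 0.41, adjusted p = 0.00175, edgeR). All gut libraries were above all spleen libraries. Ccr9 shares exon bases with Slc6a20a on the opposite strand. Since the strand setting of the counting is not given in the sources used here, reads of these genes cannot be told apart. Itga4, the alpha4 chain, was at 1587, 1895, 1112, 1616 and 1222 CPM in gut and at 3626, 4169, 2739, 3042 and 3055 CPM in spleen (-1.17 ± 0.06, adjusted p = 4.64e-06). Its gut partner chain Itgb7 was at 1002, 912, 1372, 1179 and 1125 CPM in gut and at 840.3, 789.9, 1121, 1082 and 1068 CPM in spleen, a rise of 0.19 ± 0.05 that missed the threshold without batch 190306 (adjusted p = 0.0507). Gpr15, a colon homing receptor, did not pass (0.73 ± 0.50, adjusted p = 0.275). It shares exon bases with Cpox on the opposite strand, as does Itga4 with Cerkl and Cxcr5 with Bcl9l. Of 29 tested gut homing and chemokine receptor genes, 13 rose (44.8%, all genes 21.6%) and 8 fell (27.6%, all genes 21.8%), median 0.16. Gpr34, a lysophosphatidylserine receptor, rose by 4.84 ± 0.23 and Ccr8, a chemokine receptor, by 1.87 ± 0.29. Ccr6 and Cxcr5, the receptor that leads cells to B cell follicles, fell (log2 fold changes -1.41 and -1.4014).

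Genes of the TGF-beta pathway were mostly higher in gut. Of 24 tested members 16 rose (66.7%, all genes 21.6%) and 3 fell (12.5%, all genes 21.8%), with a median of 0.61. Pmepa1, a TGF-beta-induced inhibitor of SMAD signalling, lies on chromosome 2 from 173224458 to 173276533 (minus strand). It was at 36.1, 42.9, 92.1, 37.7 and 62.5 CPM in gut and at 0.616, 0.235, 0.138, 0.39 and 0.405 CPM in spleen (log2 fold change 7.23 ± 0.26, adjusted p = 4.10e-06, edgeR). Skil, a SMAD co-repressor that TGF-beta induces, was at 186, 208, 209.7, 203 and 176 CPM in gut and at 61.7, 59.6, 41.7, 51.8 and 49.6 CPM in spleen. Its gut values were close together and more than 2-fold above every spleen value (1.90 ± 0.10, adjusted p = 8.41e-06). The related repressor Ski rose by 1.82 ± 0.10, and Smad7, the inhibitory SMAD, by 1.26 ± 0.08. Among receptors, Tgfbr3 rose by 1.86 ± 0.22 and Tgfbr2 by 0.48 ± 0.09, whereas Tgfbr1 fell by 0.39. The signal transducers Smad3 and Smad4 fell by 0.50 and 0.23.

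Other large differences lay outside these pathways. Osgin1, an oxidative stress-induced growth inhibitor, was at 75.7, 86.0, 75.7, 77.4 and 65.8 CPM in gut and at 0.514, 0.471, 0.783, 0.948 and 0.445 CPM in spleen (log2 fold change 6.90 ± 0.12, adjusted p = 6.40e-09, edgeR). Cdh1, E-cadherin, the epithelial ligand of CD103, was at 34.9, 33.4, 86.5, 42.3 and 37.5 CPM in gut and at 0.719, 0.471, 0.921, 1.004 and 0.567 CPM in spleen (5.98 ± 0.14, adjusted p = 3.67e-08). The gut library with the most Cdh1, anti-IL-2 of batch 190306, held Muc2 at 0.265 CPM and Krt19, another epithelial marker, at 0.752 CPM. In its spleen partner these were at 0.23 and 0 CPM. Which cells the Cdh1 RNA came from was not tested. Asb2, a ubiquitin ligase subunit, rose by 4.48 ± 0.16. Abi3, an actin regulator, rose by 3.92 ± 0.13, and it shares exon bases with Gngt2, Phospho1 and Zfp652 on the opposite strand. Jchain, the joining chain of secreted antibodies, was at 31.1, 462, 30.6, 16.7 and 115 CPM in gut against at most 5.62 CPM in spleen (4.88 ± 0.88). It is itself a plasma cell marker, and Mzb1, another, was at 1.1, 10.7, 0.0884, 0.588 and 1.14 CPM in gut against at most 0.829 CPM in spleen. Apol9b was at 9.34 to 14.9 CPM in gut and at most 0.112 CPM in spleen, and its near-identical copy Apol9a makes the assignment of reads uncertain. Among the largest decreases, Cmah, which makes the sialic acid Neu5Gc, was at 68.2, 72.2, 68.6, 72.2 and 96.1 CPM in gut and at 239, 244, 208, 194 and 267 CPM in spleen (-1.61 ± 0.07, adjusted p = 9.35e-07). Dnm3, a dynamin, fell by 2.19, and St6gal1, which adds sialic acid to glycoproteins, by 1.41.

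Immediate early genes, which are switched on within minutes of receptor signalling, growth factors or handling, were higher in gut almost throughout. Of 37 tested members, 34 rose (91.9%, against 21.6% of all genes) and 0 fell (median 1.55). The median difference within pairs was 1.14, 1.22, 0.64, 1.97 and 2.23, lowest in the anti-IL-2 pair of batch 190306. Fosb, an AP-1 subunit, was at 594, 945, 219.8, 1795 and 998 CPM in gut and at 97.0, 116, 17.4, 19.5 and 36.1 CPM in spleen (log2 fold change 4.04 ± 0.73, adjusted p = 0.0117, edgeR). Its relative Fos was at 276, 413, 131, 543 and 482 CPM in gut and at 59.5, 105, 35.3, 20.02 and 49.6 CPM in spleen (2.77 ± 0.53, adjusted p = 0.0139). Egr1, a zinc finger factor induced by ERK signalling, was at 238, 377, 245, 998 and 563 CPM in gut and at 38.2, 69.3, 38.7, 38.5 and 52.6 CPM in spleen (3.15 ± 0.41, adjusted p = 0.00389). Jun rose by 3.02 ± 0.63, Nr4a1, an orphan receptor induced by antigen signals, by 2.03 ± 0.52, and Tnfaip3, an inhibitor of NF-kappaB, by 2.15 ± 0.52. The size differed widely between pairs, so that leaving out the anti-IL-2 pair of batch 181201 or the IgG pair of batch 190306 left 20 members called in each case, with medians of 1.56 and 1.36. Without the anti-IL-2 pair of batch 181212 and the IgG pair of the same batch, 23 and 25 were called. Fos missed the threshold without the IgG pair of batch 190306 (adjusted p = 0.0504), and Fosb without batch 190306 (adjusted p = 0.0942). Without the anti-IL-2 pair of batch 181201, Jun, Nr4a1 and Dusp1 had adjusted p = 0.0629, 0.0977 and 0.0621, and without that of batch 181212 they had 0.0562, 0.0846 and 0.0697, with 0.088 for Tnfaip3. Without the IgG pair of batch 190306, Jun, Nr4a1 and Dusp1 had 0.0628, 0.0903 and 0.0729, and without that of batch 181212 Nr4a1 and Tnfaip3 had 0.0781 and 0.0773. Without the anti-IL-2 pairs of batches 181201 and 181212, 8 members were called, with a median of 1.73. Of the 11600 genes tested in that setting, 4047 were called, 2074 of them higher in gut.

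The same list was read against RefSeq promoters (build GRCm38.p6), because its members moved together. Windows were available for 31 of its 38 genes, for some genes several. In the 250 bases before the start, 5 of these 41 windows (12.2%) held the palindrome TGACGTCA, the cyclic AMP response element. Of all 32851 windows 1.55% did. The 5 windows belong to Btg2, Dusp1, Maff, Nfkbid and Ppp1r15a. Dusp1, a phosphatase that switches off MAP kinases and rose by 2.43 ± 0.58, is shown as the example, with the palindrome in capitals, at chr17:26508473-26508722 on the minus strand.
Dusp1: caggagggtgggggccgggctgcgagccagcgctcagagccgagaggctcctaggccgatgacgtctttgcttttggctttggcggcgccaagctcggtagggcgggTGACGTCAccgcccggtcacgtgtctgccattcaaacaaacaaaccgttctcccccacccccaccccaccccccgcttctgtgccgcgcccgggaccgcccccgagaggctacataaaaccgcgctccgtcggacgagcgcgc
In all, 7 motifs were searched on both strands over 3 lists, 21 counts, and the windows shown were chosen after the counts were seen. The serum response element was in 5 of the 41 windows of this list (12.2%, from 2 genes) against 1.47% of all. The STAT motif TTCNNNGAA was in 5 (12.2%) against 7.02%, CCAAT in 16 (39.0%) against 33.8%, CACCC in 24 (58.5%) against 52.0%, GTCTAGAC in 1 (2.44%) against 0.167%, and TCACCCCAC in 0 against 0.496%. A match is a run of letters and not a bound site.

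Cholesterol synthesis was higher in gut for most of its genes: 19 of 23 tested members rose and 0 fell (median 0.62, where 21.6% of all genes rose). Insig1, the sterol-regulated retention protein of SREBP, was at 49.7, 53.1, 33.96, 59.5 and 43.1 CPM in gut and at 21.8, 22.7, 23.5, 19.96 and 18.2 CPM in spleen, with no overlap (log2 fold change 1.15 ± 0.13, adjusted p = 0.000402, edgeR). Fdps, which makes farnesyl diphosphate, rose by 1.35 ± 0.11. Lss, lanosterol synthase, rose by 0.91 ± 0.08. Hmgcs1, which makes HMG-CoA, was at 126, 117, 80.0, 122 and 80.6 CPM in gut and at 56.3, 63.0, 62.1, 72.5 and 60.7 CPM in spleen (0.71 ± 0.12). Leaving out any pair left 17 to 19 members called.

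Windows were available for 16 of the 24 cholesterol genes. Of these 19 windows, 16 (84.2%, from 16 genes) held CCAAT, the NF-Y motif, against 33.8% of all windows. This is the highest share among the 21 counts. The sterol response element TCACCCCAC was in 1 of 19 (5.26%), that of Hmgcs1, against 0.496% of all. TTCNNNGAA was in 1 (5.26%), CACCC in 12 (63.2%) and TGACGTCA, the serum response element and GTCTAGAC in 0 each. The windows of Hmgcs1 (chr13:119690101-119690350), Insig1 (chr5:28071162-28071411) and Lss (chr10:76531355-76531604), all on the plus strand, are given with CCAAT, or its reverse complement ATTGG, and TCACCCCAC in capitals.
Hmgcs1: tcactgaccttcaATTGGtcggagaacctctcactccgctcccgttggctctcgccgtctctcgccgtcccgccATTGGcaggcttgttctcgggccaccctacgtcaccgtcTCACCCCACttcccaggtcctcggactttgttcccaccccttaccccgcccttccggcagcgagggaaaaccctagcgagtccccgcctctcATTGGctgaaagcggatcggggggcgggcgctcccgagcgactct
Insig1: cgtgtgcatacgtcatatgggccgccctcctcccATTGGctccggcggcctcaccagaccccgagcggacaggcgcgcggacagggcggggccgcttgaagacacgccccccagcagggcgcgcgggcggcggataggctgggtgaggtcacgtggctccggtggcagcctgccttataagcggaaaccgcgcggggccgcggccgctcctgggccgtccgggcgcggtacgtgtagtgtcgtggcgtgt
Lss: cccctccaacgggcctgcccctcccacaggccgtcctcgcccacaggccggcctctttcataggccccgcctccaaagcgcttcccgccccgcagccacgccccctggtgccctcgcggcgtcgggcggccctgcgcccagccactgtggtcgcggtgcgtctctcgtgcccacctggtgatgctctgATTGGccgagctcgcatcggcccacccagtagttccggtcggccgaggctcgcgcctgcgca

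The series asks about the IL-2 and STAT5 pathway. Of 41 tested members, 17 rose in gut (41.5%, against 21.6% of all genes) and 5 fell (12.2%, against 21.8%), with a median of 0.23. Cish, a STAT5-induced inhibitor of cytokine and antigen receptor signals, was at 116, 117, 291, 174 and 144 CPM in gut and at 13.2, 11.7, 22.98, 39.8 and 9.14 CPM in spleen. The groups did not overlap, under either treatment label (log2 fold change 3.22 ± 0.30, adjusted p = 0.000941, edgeR). Socs2, whose values are given above, rose within each pair (1.98 ± 0.24, adjusted p = 0.000354), although the groups overlapped. Il2ra, the high-affinity receptor chain, was at 85.0, 66.4, 308, 178 and 97.96 CPM in gut and at 55.7, 53.2, 156, 206 and 44.1 CPM in spleen, and it did not pass (0.57 ± 0.21, adjusted p = 0.0765). Among the other receptor components, Jak3 rose by 0.52 ± 0.08 and Il2rg, the common gamma chain, by 0.20 ± 0.06, while Il2rb fell by 0.21. Stat5b rose by 0.15 ± 0.05 and Stat5a did not pass (-0.0089 ± 0.05). These small differences were not stable. Leaving out single pairs took Il2rg to adjusted p = 0.0587, 0.104 and 0.0984 (anti-IL-2 of batches 181212 and 190306, IgG of batch 190306) and Il2rb to 0.0589, 0.0766 and 0.0607 (anti-IL-2 of batches 181201 and 181212, IgG of batch 181212). Stat5b reached 0.05, 0.108, 0.11 and 0.0931 without anti-IL-2 of batches 181212 and 190306 and IgG of batches 181212 and 190306. Without batch 190306, 10 rose and 5 fell, where 1505 and 1347 of the 11694 genes tested did. Without the anti-IL-2 pairs of batches 181201 and 181212, Cish had adjusted p = 0.0529 (edgeR). Promoter windows were available for 35 of the 43 genes of this list. TTCNNNGAA was in 7 of these 46 windows (15.2%) against 7.02% of all, and that of Cish was not among them. CCAAT was in 12 (26.1%), CACCC in 30 (65.2%), TGACGTCA in 1 (2.17%), and the other 3 motifs in 0.

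Of 29 tested cytokine and chemokine transcripts, 15 rose (51.7%, all genes 21.6%) and 2 fell (6.9%, all genes 21.8%), with a median of 0.53. Tnf was at 28.6, 26.4, 23.5, 69.4 and 36.6 CPM in gut and at 7.96, 9.41, 7.74, 6.97 and 7.77 CPM in spleen (log2 fold change 2.10 ± 0.27, adjusted p = 0.00178, edgeR). Ccl4, an inflammatory chemokine, was at 247, 302, 187, 201 and 403 CPM in gut and at 73.2, 65.5, 64.7, 56.5 and 56.7 CPM in spleen (2.03 ± 0.20, adjusted p = 0.000696). For both, spleen values lay close together and gut values were all above them. Ifng, the main macrophage-activating cytokine, was at 254, 273, 189.9, 399 and 357 CPM in gut and at 131, 142, 144, 98.3 and 66.2 CPM in spleen (1.34 ± 0.36, adjusted p = 0.0347). It missed the threshold without any of the anti-IL-2 pairs of batch 181201 or 181212 or the IgG pair of batch 181212 (adjusted p = 0.0824, 0.0754 and 0.0872). Csf2 rose by 1.26 ± 0.23, and Osm, a cytokine of the IL-6 family, fell by 0.46.

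Of the cytotoxic genes 11 of 29 rose (37.9%, against 21.6% of all genes) and 5 fell (17.2%, against 21.8%), with a median of 0.19. Gzma, granzyme A, was at 4135, 3072, 5002, 3282 and 1510 CPM in gut and at 394, 353, 1427, 1179 and 594 CPM in spleen (log2 fold change 2.22 ± 0.42, adjusted p = 0.0141, edgeR). Gzmb, granzyme B, was at 3280, 2725, 5915, 3127 and 3206 CPM in gut and at 1525, 1441, 2844, 3326 and 1297 CPM in spleen (0.87 ± 0.22, adjusted p = 0.0251). Gut was lower in the IgG pair of batch 181212, and without the other pairs in turn the adjusted p was 0.0953, 0.0768, 0.0697 and 0.0543. Prf1, perforin, was at 382, 373, 479, 310 and 425 CPM in gut and at 427, 384, 509, 496 and 407 CPM in spleen and did not pass (-0.18 ± 0.10, adjusted p = 0.175). Fasl rose by 1.01 ± 0.08, and Klrg1, a marker of short-lived effector cells, fell by 0.78.

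Of 22 inhibitory receptor and exhaustion genes, 10 rose (45.5%, all genes 21.6%) and 4 fell (18.2%, all genes 21.8%), with a median of 0.35. Pdcd1, encoding PD-1, was at 548, 518, 673, 471 and 636 CPM in gut and at 588, 561, 469, 448 and 516 CPM in spleen and did not pass (0.14 ± 0.09, adjusted p = 0.273, edgeR). Havcr2, encoding TIM-3, did not pass either (0.14 ± 0.11). Lag3 rose by 0.38 ± 0.06, Entpd1, which encodes the ectonucleotidase CD39, by 0.81 ± 0.09, Cd160 by 1.04 ± 0.10 and Cd101 by 1.53 ± 0.09. Tox, a factor of exhausted cells, fell by 0.66, and Btla, an inhibitory receptor for HVEM, by 1.31. Of 23 glutathione, adenosine and prostaglandin genes, 13 rose (56.5%, all genes 21.6%) and 1 fell (4.35%, all genes 21.8%), with a median of 0.57. Among those that rose were Nt5e (CD73, 1.4025 ± 0.29) and Hpgds (prostaglandin D synthase, 3.33 ± 0.23). Vipr2, a receptor for vasoactive intestinal peptide, rose by 3.77 ± 0.29.

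Genes of naive and memory cells were mostly lower in gut. Of 25 tested, 14 fell (56%, all genes 21.8%) and 1 rose (4%, all genes 21.6%), with a median of -0.49. Tcf7, the TCF-1 factor of memory and stem-like cells, was at 220.3, 200.1, 38.3, 43.3 and 369.9 CPM in gut and at 427, 513, 80.7, 85.2 and 626 CPM in spleen. Each gut library was below its own partner, but the groups overlapped because pairs differed widely in level (log2 fold change -1.02 ± 0.08, adjusted p = 3.20e-05, edgeR). Without the pair block, in the model of all 22 libraries, its adjusted p was 0.441. Eomes, a T-box factor, fell by 1.09, Slamf6, a receptor of stem-like cells, fell by 1.1976, Il6ra by 2.01, Bach2, a repressor of effector genes, by 0.60 and Lef1, a relative of TCF-1, by 0.54. Lef1 missed the threshold without each pair except IgG of batch 181212 (adjusted p = 0.0538 to 0.119). The T-box factor Tbx21 did not pass (-0.0034 ± 0.05).

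Cell division genes were lower in gut as well, replication genes less evenly over pairs than mitosis genes. Of 36 tested mitosis genes 33 fell (91.7%, against 21.8% of all genes) and 0 rose (median -0.52). Of 35 DNA replication genes 19 fell (54.3%) and 0 rose (median -0.30). Mki67, the proliferation marker, was at 1073, 1210, 1240, 1160 and 932 CPM in gut and at 1519, 1615, 2389, 2424 and 1608 CPM in spleen, with no overlap (log2 fold change -0.74 ± 0.10, adjusted p = 0.000709, edgeR). The fall differed between pairs: the median mitosis difference was -0.12, -0.29, -0.75, -0.71 and -0.85. The median replication difference was -0.016, -0.022, -0.351, -0.658 and -0.508. In the anti-IL-2 pairs of batches 181201 and 181212, 16 and 15 of the 35 replication genes were higher in gut. Without batch 190306, 16 mitosis and 2 replication genes fell, where 1347 of the 11694 genes tested did. Leaving out single pairs left 27 to 35 mitosis genes and 11 to 23 replication genes called lower, the fewest replication genes without either pair of batch 190306.

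**Figure D4:**
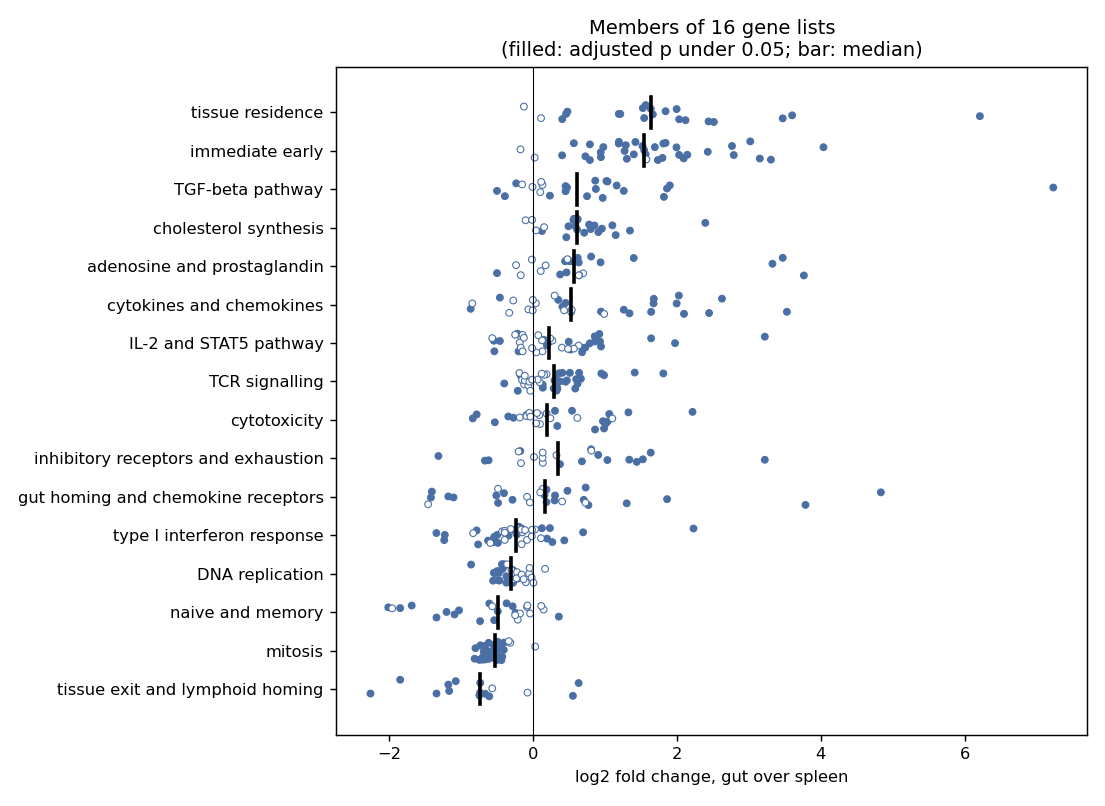
Log2 fold change of gut over spleen CD8 cells for every tested member of 16 gene lists (filled points: adjusted p under 0.05; bar: list median). Residence and immediate early genes lie mostly to the right with medians of 1.64 and 1.55, and mitosis and tissue exit genes mostly to the left with medians of -0.52 and -0.73.

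Genes induced by type I interferon were lower more often than higher. Of 41 tested, 17 fell (41.5%, all genes 21.8%) and 7 rose (17.1%, all genes 21.6%), with a median of -0.23. Rsad2, an antiviral enzyme, fell by 1.34 and Cmpk2 by 1.23, whereas Isg20, an exonuclease, rose by 2.23 ± 0.16. Of 35 interferon-gamma and class I antigen presentation genes, 16 rose (45.7%, all genes 21.6%) and 2 fell (5.71%, all genes 21.8%), median 0.19. The membrane proteins Ifitm1, Ifitm2 and Ifitm3, which restrict viral entry, were called higher, with log2 fold changes of 1.84, 2.18 and 1.89. Ifitm3 was at 13.6, 11.8, 152, 88.9 and 27.7 CPM in gut and at 6.93, 3.65, 20.9, 42.2 and 4.29 CPM in spleen, so the libraries with high Socs2 were high here too, and the groups overlapped. Ifitm1 missed the threshold without any single pair (adjusted p = 0.0507 to 0.0768). Of 40 antigen receptor signalling genes, 23 rose (57.5%, all genes 21.6%) and 3 fell (7.5%, all genes 21.8%), with a median of 0.30. Lat (0.64 ± 0.06) and Zap70 (0.60 ± 0.05) were among those that rose. Of 25 glycolysis genes 10 rose (40%, all genes 21.6%) and 4 fell (16%, all genes 21.8%), with a median of 0.05. Of 30 respiratory chain genes 6 rose (20%, near the 21.6% of all genes) and 1 fell (3.33%, all genes 21.8%). The median was 0.03.

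**Figure D5:**
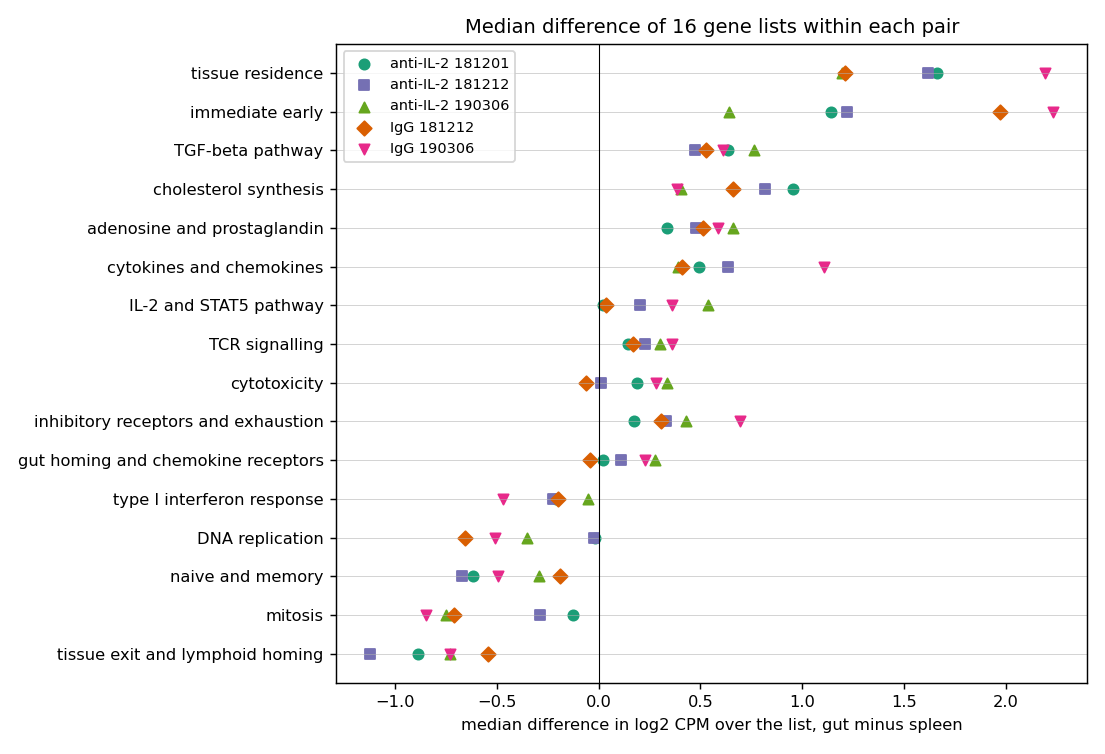
Median difference in log2 CPM, gut minus spleen, of 16 gene lists within each of the 5 pairs. The immediate early list ranges from 0.64 to 2.23 and the mitosis list from -0.85 to -0.12, while the TGF-beta list stays between 0.47 and 0.76.

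The tissue difference was compared between treatment labels in a model with a tissue effect for each label. Of 11589 genes 0 passed (0%), with 696 at an unadjusted p under 0.05, where DESeq2 called 39. Without batch 190306, 225 genes passed, and without its anti-IL-2 or IgG pair 8 and 2. The smallest p belonged to Ciart, a circadian repressor, whose gut increase was 0.61 ± 0.25 under anti-IL-2 and 4.13 ± 0.32 under IgG (adjusted p = 0.17, edgeR). These values go by the labels as deposited. In genes such as Socs2, Ifitm3 and Tcf7, the libraries labelled anti-IL-2 in batch 190306 resembled those labelled IgG in batch 181212. No direction of a treatment effect can therefore be drawn from the values by label, nor from the counts of 0 and 225. Whether labels were exchanged was not tested. For Dusp1 the values were 1.54 ± 0.16 under anti-IL-2 and 3.87 ± 0.21 under IgG (adjusted p = 0.186). For Foxp3 they were 1.02 ± 0.17 and -0.25 ± 0.20 (adjusted p = 0.417), and for Cish 3.39 ± 0.41 and 2.97 ± 0.50. A p that misses the threshold here does not show that the labels act alike.

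The tissue difference of CD8 cells was also set against that of CD4 cells, in 20 libraries, the CD4 libraries being those of the same batches, labels and tissues. Of 12127 genes 292 (2.41%) differed, 131 (1.08%) with a more positive difference in CD8 cells and 161 (1.33%) with a more negative one. Leaving out the pairs of both cell types for a batch and label gave 69, 37 and 142 (anti-IL-2 of batches 181201, 181212 and 190306) and 331 and 55 (IgG of batches 181212 and 190306). Osgin1 rose by 6.89 ± 0.28 in CD8 cells and by 4.40 ± 0.23 in CD4 cells (adjusted p of the difference = 0.0168, edgeR). Cdh1 rose by 5.96 ± 0.20 in CD8 cells and by 4.21 ± 0.18 in CD4 cells (adjusted p = 0.0154). Itgae rose by 6.196 ± 0.61 in CD8 cells and by 3.50 ± 0.52 in CD4 cells, a difference that did not pass (adjusted p = 0.13). Some genes ran in opposite directions. Klrg1 fell by 0.79 in CD8 cells and rose by 0.98 ± 0.20 in CD4 cells (adjusted p = 0.013), and Ccr6 was at -1.45 ± 0.27 in CD8 cells and at 0.80 ± 0.26 in CD4 cells (adjusted p = 0.0144). Gpm6b, a membrane glycoprotein, was at 0.09 ± 0.12 in CD8 cells and at -2.23 ± 0.10 in CD4 cells (adjusted p = 4.26e-05). Plac8 rose by 1.58 ± 0.05 in CD8 cells and by 2.30 ± 0.05 in CD4 cells, and Adgrg1, an adhesion receptor of cytotoxic cells, by 1.47 ± 0.08 in CD8 cells and by 2.92 ± 0.12 in CD4 cells.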

How the data were processed

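Per the labels' protocols, RNA of FACS-sorted donor T cells went into stranded mRNA libraries. Raw read counts per gene symbol were deposited by the authors. The submitters' processing notes name TopHat2, HTSeq 0.9.1 and the mm10 build; the annotation, strand setting and filters are not given in the sources used here. Of 24091 names, 97.6% matched GENCODE M21, used for positions. Further named genes share exon bases with coding genes on the opposite strand. Among them are Dusp1 (Ergic1), Foxp3 (Ccdc22 and Ppp1r3f), Cd160 (Pdzk1) and Stat5a (Stat3).

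In R 4.3.3 with edgeR 4.0.16, genes were filtered with filterByExpr (minimum count 10), scaled by TMM and fitted with the quasi-likelihood test (robust) and the pair as a block, which leaves 4 residual degrees of freedom. Benjamini-Hochberg adjustment ran over every gene tested, with a threshold of 0.05. CPM, computed here, uses TMM-scaled library sizes. Gut and spleen libraries of the same batch and label deviated together from their group means, with correlations of 0.494 to 0.734, so pairs were kept. The code was tested on simulated counts.

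The members, the 36 gene lists and the 20 marker lists were chosen with earlier results of these data known. Named genes are the 15 largest changes per direction averaging log2 CPM 2 or more and moving one way in all 5 pairs, the 3 list members of smallest p per direction, and a fixed core set, of which Znf683 was not in the table; other list members named were chosen after their values were seen. Alternatives used DESeq2 1.42.0, limma 3.58.1, other scalings and subsets of pairs. Intervals cover the spread between libraries, and reads carry no molecular identifiers. Some genes of the lists are counted but not reported here by name.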

Additional observations from a re-analysis of the deposited data

Results flagged for a closer look

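Some libraries stood far from the other 4 of their tissue. Of 140 groups of 5 libraries checked, 14 held such a value, where chance flags about 1 in 20. The genes checked were those whose values are printed, so the number of flags depends on that choice. The gut anti-IL-2 library of batch 190306 was the highest for Cdh1 (86.48 CPM), Gzmb (5915 CPM) and Foxp3, the regulatory T cell factor (43.06 CPM). The gut IgG library of batch 190306 was the highest for Cmah (96.06 CPM), and the spleen library of that batch and label for Gpr15 (2.792 CPM). Tnf stood at 69.41 CPM in the gut IgG library of batch 181212. That library had the lowest sum of CD8 markers (2544 CPM) and the highest sum of natural killer cell markers (102.9 CPM), and its spleen partner was also the highest of spleen for natural killer markers (84.77 CPM). Klrb1c made up 100 and 82.8 CPM of these sums, and the other 4 natural killer markers summed to 2.56 CPM in that gut library and 1.95 CPM in its spleen partner.

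RNA of other cells was uneven too. Jchain (462 CPM) and the plasma cell sum (481.9 CPM) were highest in the gut anti-IL-2 library of batch 181212, and Muc2 (26.06 CPM) in that of batch 181201. In spleen, the anti-IL-2 library of batch 181201 held the most erythroid (19.11 CPM) and platelet (2.157 CPM) marker RNA. Itga2b made up 1.85 CPM of this platelet sum, and it was at 0.883 CPM or more in all 10 libraries.

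The tissue difference of these genes differed between CD8 and CD4 cells by the test of the difference itself (edgeR, adjusted over 12127 genes). The CD8 difference minus the CD4 difference in log2 fold change was 2.319 for Gpm6b, 2.377 for Maats1, 0.68 for Myb, 2.243 for Slc43a1, 0.833 for Cd200, 2.486 for Osgin1, 1.754 for Cdh1 and 1.878 for Gpr34. It was -0.805 for Igf2r, -1.449 for Adgrg1, -0.715 for Plac8, -0.578 for Gm2a, -1.243 for Aldh7a1, -1.767 for Klrg1 and -2.246 for Ccr6.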

How the results depend on the processing

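With 5030 genes called in the paired fit, the count was 2177 with no pair block and tissue alone, 2852 without batch 190306, 979 within batch 181212 (4056 within batch 190306), 3025 in the anti-IL-2 pairs and 2277 in the IgG pairs, where fewer libraries entered these subsets. It was 3972 to 4631 when single pairs were left out, and 4287 with DESeq2. Upper quartile scaling left 44.1% of its calls higher, against 49.8% in the main fit. The pairing came from shared batch and label, and each gut library's deviation correlated best with that of its own spleen partner. The difference between treatment labels had 0 to 8 calls when single pairs were left out, 3 with no filter on low counts, 39 with DESeq2 and 225 without batch 190306. The difference between CD8 and CD4 cells had 37 to 331 calls when pairs were left out, 57 with no block and 545 with DESeq2. For these counts the cause was not tested.

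Among the named genes, those whose sign turned were not called. The genes added to the naming rule were shortened after it was seen which uncalled genes changed sign, so this set does not show how often uncalled genes do. Without batch 190306 and within batch 181212, the log2 fold change of Pdcd1 was -0.043 and -0.015, that of Gpr15 -0.583 and -0.627, and that of Havcr2 -0.038 and -0.009. Foxp3 was at -0.095 with all 22 libraries, -0.005 within batch 181212 and -0.231 in IgG pairs. Hspa1b, near-identical to Hspa1a, ranged from -0.364 to 0.607 without single pairs and was at -0.377 within batch 190306, -0.242 in IgG pairs and -0.492 without the anti-IL-2 pairs of batches 181201 and 181212. Tbx21 ranged from -0.026 to 0.024 without single pairs and was at 0.048 within batch 190306 and 0.009 in IgG pairs. Prdm1 was at 0.032 within batch 190306. Stat5a ranged from -0.02 to 0.011 without single pairs and was at 0.001 with all 22 libraries, 0.063 within batch 190306 and 0.017 without those anti-IL-2 pairs. The heat shock median ranged from -0.027 to 0.167 and was at -0.015 within batch 190306 and -0.06 without those anti-IL-2 pairs, the amino acid and ATF4 median ranged from -0.137 to 0.021, and the type 17 median was -0.001 within batch 181212. Of 684 recomputed list medians, 644 stayed within 1 SD of the 5 pair medians.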

Other observations

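Other gene groups held smaller or mixed differences between gut and spleen CD8 cells. Of 14 tested genes associated with regulatory T cells, 6 rose (42.9%, all genes 21.6%) and 1 fell (7.14%, all genes 21.8%). The median log2 fold change was 0.56. Those that rose included Ikzf4, an Ikaros family factor, by 2.43 ± 0.28, and Tnfrsf18, which encodes the costimulatory receptor GITR, by 0.69 ± 0.12. Nrp1 fell by 0.17. Foxp3 and the inhibitory receptor Ctla4 (0.81 ± 0.26, adjusted p = 0.0543, edgeR) did not pass. Among 36 effector and fate transcription factors, 17 rose (47.2%, all genes 21.6%) and 5 fell (13.9%, all genes 21.8%), with a median of 0.22. Rbpj, the nuclear partner of Notch, rose by 1.11 ± 0.07, and Batf, an AP-1 partner factor, fell by 0.24.

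Of 26 costimulation genes, 6 rose (23.1%, near the 21.6% of all genes) and 9 fell (34.6%, against 21.8%; median 0.08), with Cd80 lower by a log2 fold change of -0.94 and Cd86 higher by 0.41 ± 0.10. Of 31 cytoskeleton, migration and protease genes, 12 rose (38.7%, all genes 21.6%) and 9 fell (29%, all genes 21.8%), with a median of 0.07. Lmna, which encodes the nuclear lamina protein lamin A, rose by 2.79 ± 0.24, while Ahnak and Emp3 fell by 0.74 and 0.53.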
